A study of Homo sapiens with 8 samples.

Results

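Chromosome 8 carried 665 distinct p63-bound regions in the squamous carcinoma lines CAL27 and SCC13, of 15267 in the whole genome, and its short arm (8p) and long arm (8q) are described here. A member is any listed region on chromosome 8, assigned to 8p where its midpoint lies below position 45600000 of hg19 and to 8q otherwise; this gave 130 regions on 8p and 535 on 8q. The chromosome was chosen from the listed positions themselves, because the lines were already known to differ on its short arm, so the counts by arm and class are given as a description with no test. Every member was kept, and no filter on width or score was applied.

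The protein p63 is a transcription factor of the p53 family, encoded by TP63, that maintains basal keratinocytes of stratified epithelia and is expressed in squamous carcinomas. It binds its response elements mostly at enhancers, so a map of p63 regions marks candidate regulatory elements of the squamous lineage. Known epithelial and growth factor genes lie on both arms of chromosome 8: the death receptor gene TNFRSF10B in 8p21.3, the ERBB ligand gene NRG1 in 8p12 and the receptor kinase gene FGFR1 in 8p11.23; and on the long arm SNAI2 in 8q11.21, GRHL2 in 8q22.3 and the plectin gene PLEC in 8q24.3. These locations are background; regions were placed in cytogenetic bands and were not assigned to genes, and exons and introns at the positions given were not analysed here.

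The study immunoprecipitated p63 from crosslinked chromatin of both lines and sequenced the DNA. CAL27 is an established line from a squamous carcinoma of the tongue and SCC13 an established line from a squamous carcinoma of the skin; both were labelled wild type and untreated. CAL27 grew in a DMEM/F12 medium with 10% serum and SCC13 in a serum-free keratinocyte medium with 0.3 mM calcium chloride, so line and medium cannot be told apart. The 8 samples formed 4 groups of 2: each line gave p63 immunoprecipitates and samples with the title none, whose use the labels do not state. However, each line has 1 list of regions that stands for both p63 replicates. There is therefore no spread between replicates and no p-value below, and the sequencing depth is unknown, so absence from a list does not show that p63 was missing from a site. Intervals are at the 95% level and cover counting error only, with regions treated as independent, which neighbouring regions may not be.

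The short arm had nearly as many p63 regions in SCC13 as in CAL27, whereas the long arm had many more in CAL27. On 8p, 93 regions were listed in CAL27 and 79 in SCC13, so the CAL27 count was 1.18 times the SCC13 count. On 8q the counts were 468 and 236, a factor of 1.98, and over the whole genome 13829 and 5886, a factor of 2.35. Regions found in both lists had identical start and end positions, for all 4448 of them in the whole genome and all 211 on this chromosome. Each distinct region thus falls in 1 of 3 classes: listed in both lines, in CAL27 only or in SCC13 only. In the whole genome these classes made up 29.1%, 61.4% and 9.42% of distinct regions.

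On 8p, 42 regions were listed in both lines, 51 in CAL27 only and 37 in SCC13 only. As shares of the 130 regions, these were 32.3% (exact interval 24.4 to 41.1), 39.2% (30.8 to 48.2) and 28.5% (20.9 to 37.0). On 8q, 169 regions were in both lines, 299 in CAL27 only and 67 in SCC13 only, or 31.6% (27.7 to 35.7), 55.9% (51.6 to 60.1) and 12.5% (9.84 to 15.6) of 535. As a share of distinct regions, those common to both lines were thus alike on the arms and close to the 29.1% of the genome. As a share of each list they were not: on 8p they made up 53.2% (41.6 to 64.5) of the SCC13 list, the lowest of the 41 arms with 20 or more regions, against 71.6% (65.4 to 77.3) on 8q. Of the CAL27 list they made up 45.2% (34.8 to 55.8) on 8p, the highest of those arms, and 36.1% (31.8 to 40.6) on 8q, with overlapping intervals. Neither rank is settled beyond counting error. On Xq 54.2% (42.0 to 66.0) of the SCC13 list was in both lines, and on 4p 40.8% (32.8 to 49.2) of the CAL27 list. The arms differed in which line held the rest: SCC13-only regions were 42.0% (31.6 to 53.0) of the line-only regions on 8p and 18.3% (14.5 to 22.7) on 8q, against 13.3% (12.7 to 13.9) in the genome.

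Densities show that 8p was poor in CAL27 regions and not particularly rich in SCC13 regions. CAL27 had 2.04 regions per Mb on 8p, 4.64 on 8q and 4.55 over all chromosomes. SCC13 had 1.73 per Mb on 8p, 2.34 on 8q and 1.94 overall. Regions listed in both lines were sparse on 8p too, at 0.921 per Mb against 1.68 on 8q. SCC13-only regions were the class with a higher density on 8p, 0.811 per Mb against 0.665 on 8q and 0.474 overall. Since 8p makes up 31.2% of the length of the chromosome, its 16.6% (13.6 to 19.9) of the chromosome's CAL27 regions and 25.1% (20.4 to 30.2) of its SCC13 regions both fell short of its length. Of the chromosome's SCC13-only regions, 35.6% (26.4 to 45.6) lay on 8p.

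**Figure D1:**
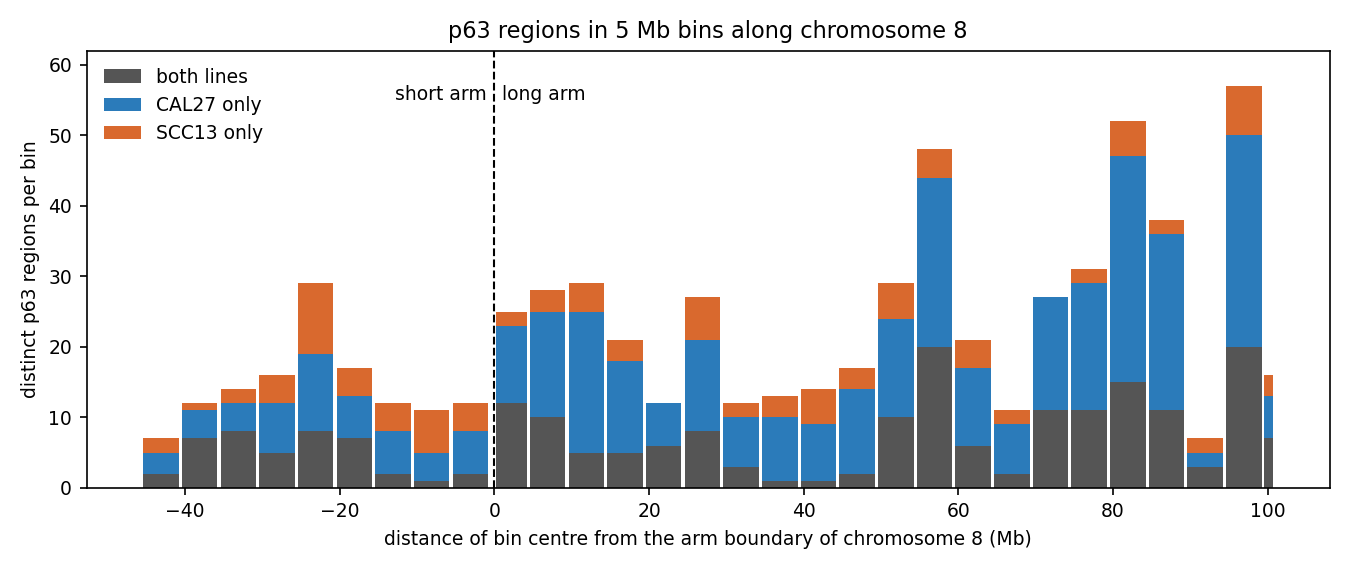
Distinct p63 regions per 5 Mb bin along chromosome 8, against the distance of the bin centre from the arm boundary in Mb (negative on the short arm), stacked by class: both lines, CAL27 only and SCC13 only. Bins of the short arm hold 0 to 29 regions and those of the long arm 7 to 57; the bin next to the boundary on the short arm is 0.6 Mb long and empty.

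In 5 Mb bins along 8p, each of the 9 bins with a region held all 3 classes, and the 10th bin, next to the centromere, held none. The bin from 20 to 25 Mb had the most regions of the arm, 29, and the most of each line-only class, with 8 in both lines, 11 in CAL27 only and 10 in SCC13 only. The bin from 10 to 15 Mb also had 8 regions in both lines, with 4 in CAL27 only and 2 in SCC13 only. The fewest regions among the filled bins were the 7 from 0 to 5 Mb, at the telomere, with 2, 3 and 2 in the 3 classes. SCC13-only regions were fewest from 5 to 10 Mb, where 1 of 12 regions was of this class and 7 were in both lines.

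One bin of 8p, from 35 to 40 Mb, held more SCC13-only than CAL27-only regions, 6 against 4, with 1 region in both lines. This count depends on the bins and widths used: at least as many SCC13-only as CAL27-only regions were found in 4 of 10 bins shifted by 2.5 Mb, and in 7 of 9 bins among regions wider than 773 bp. Ties were allowed in both, and among the wider regions they include bins with no line-only region. Off chromosome 8, SCC13-only regions at least equalled CAL27-only ones in 8 of 485 unshifted bins with 10 or more regions of any width. In the unshifted bin from 35 to 40 Mb the SCC13-only share of 54.5% (23.4 to 83.3) was the highest of the 513 bins of the genome with 10 or more regions. It rests on 11 regions. The 8 bins of 8p with 10 or more regions had SCC13-only shares from 8.33% to 54.5% with a median of 29.2%, and the 485 such bins off chromosome 8 had a median of 8.06% and an upper quartile of 14.3%. Besides that bin, 3 bins of 8p had shares above 30%, those from 20 to 25 Mb with 34.5% and from 30 to 35 and 40 to 45 Mb with 33.3% each, at ranks 10 and 11 (tied) of 513. The excess of SCC13-only regions was therefore spread over several bins of the arm, and with any 1 of the 9 bins left out the SCC13-only share of 8p was 26.1 to 30.5%.

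Along 8q, CAL27-only was the most numerous class in 17 of 21 bins, and regions in both lines led in 3. Between 65 and 70 Mb both of these classes had 6 regions and SCC13-only regions had 0. The bin with the most regions of the chromosome lay from 140 to 145 Mb, in the gene-dense end of the arm, with 20 regions in both lines, 30 in CAL27 only and 7 in SCC13 only, the most SCC13-only regions of any bin of 8q. From 125 to 130 Mb the arm had its most CAL27-only regions, 32, beside 15 in both lines and 5 in SCC13 only, and from 100 to 105 Mb it had 20, 24 and 4. The fewest regions were the 7 from 135 to 140 Mb, with 3, 2 and 2 in the classes, the fewest CAL27-only regions of the arm. Regions in both lines were fewest, 1 each, from 80 to 85 and from 85 to 90 Mb. No SCC13-only region was listed from 115 to 120 Mb among 27 regions, a share that counting error allows to be as high as 12.8%.

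The highest SCC13-only share on 8q was found from 85 to 90 Mb, 35.7% (12.8 to 64.9) of 14 regions, at rank 9 of the 513 bins. The 20 bins of 8q with 10 or more regions had a median of 14.0%, between those of 8p and of the other chromosomes. No bin of 8q had more SCC13-only than CAL27-only regions; from 135 to 140 Mb the classes were level at 2.

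Within 8p, divided into 3 segments of 15.2 Mb, the share of regions in both lines was highest in the telomeric and lowest in the centromeric segment. In the telomeric segment 17 of 33 regions were in both lines, 51.5% (33.5 to 69.2), in the middle segment 20 of 63, 31.7% (20.6 to 44.7), and in the centromeric segment 5 of 34, 14.7% (4.95 to 31.1). SCC13-only regions took the reverse order, with 5, 18 and 14 regions, or 15.2% (5.11 to 31.9), 28.6% (17.9 to 41.3) and 41.2% (24.6 to 59.3). CAL27-only regions numbered 11, 25 and 15, or 33.3%, 39.7% and 44.1%, with intervals that overlap widely. The intervals of the telomeric and centromeric segments do not overlap for regions in both lines and overlap for SCC13-only regions. In the 5 Mb bin at the telomere 28.6% (3.67 to 71.0) of regions were in both lines. The share was 58.3% from 5 to 10 Mb and 57.1% from 10 to 15 Mb, so the telomeric segment owed its high share to these bins. Per Mb, regions in both lines numbered 1.12, 1.32 and 0.329 in the 3 segments, most in the middle.

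On 8q, divided into 3 segments of 33.6 Mb, no such order of the segments was seen. From the centromere outwards, 32.2% (24.8 to 40.4), 27.3% (20.4 to 35.0) and 34.1% (28.0 to 40.5) of regions were in both lines. SCC13-only regions made up 13.4% (8.40 to 20.0), 16.2% (10.8 to 23.0) and 9.48% (6.04 to 14.0). CAL27-only regions stayed between 54.4% and 56.5%. The segments were defined after the values had been seen.

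**Figure D2:**
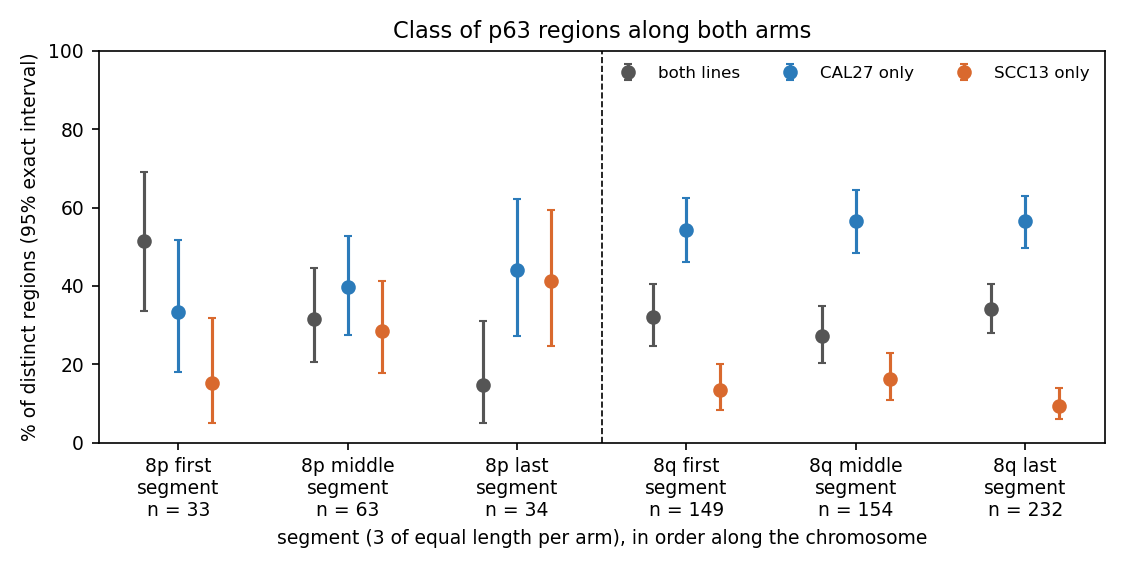
Share of distinct regions (%) in each class for the 3 segments of each arm, in order from the telomere of 8p to the telomere of 8q, with 95% exact intervals. Regions in both lines go from 51.5% to 14.7% along 8p while SCC13-only regions go from 15.2% to 41.2%; on 8q the shares in both lines lie between 27.3% and 34.1%.

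By cytogenetic band, SCC13-only regions of 8p were most numerous in 8p21.3 and 8p12. Band 8p21.3 held 26 regions, the most of any band of the arm, with 7 in both lines, 7 in CAL27 only and 12 in SCC13 only, so 46.2% (26.6 to 66.6) were SCC13-only. Band 8p12 held 20, with 4, 7 and 9 in the classes, or 45% (23.1 to 68.5) SCC13-only. These bands span 4.30 and 7.70 of the 45.6 Mb of the arm and held 12 and 9 of its 37 SCC13-only regions. The longer 8p12 was thus less dense in them than 8p21.3. Small bands had high shares too: 3 of 4 regions were SCC13-only in 8p11.23, which spans 1.8 Mb, and 2 of 3 in 8p23.2. Band 8p11.21 had 4 SCC13-only regions among 14 in 3.40 Mb. Band 8p23.1, home of a defensin gene cluster, was the opposite case, with 14 of 24 regions in both lines and 2 in SCC13 only, or 8.33% (1.03 to 27.0). Neighbouring 8p21.2 had 2 SCC13-only regions among 13, and 8p21.1 had none among 6. The dark band 8p22 held 12 regions in 6.30 Mb, with 4 in both lines, 6 in CAL27 only and 2 in SCC13 only.

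On 8q the band 8q24.3 held the most regions, 73, of which 27 were in both lines, 36 in CAL27 only and 10 in SCC13 only. Band 8q22.3, the band of the epithelial transcription factor gene GRHL2, had 43 regions in 4.60 Mb, 17 of them in both lines and 5 in SCC13 only. Band 8q11.21, the band of SNAI2, had 29, of which 13 were in both lines and 3 in SCC13 only. In 8q24.21 50 regions lay in 4.20 Mb, with 16, 31 and 3 in the classes, so 6% (1.25 to 16.5) were SCC13-only. In 8q24.11 and 8q24.12 no SCC13-only region was listed among 12 and 16. The only band of 8q where SCC13-only regions outnumbered CAL27-only ones was 8q21.2, 3 against 1 with none in both lines, and the bands 8q11.22 and 8q24.23 held no region at all.

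Pale, G-negative bands, which are rich in genes, held 60.8% (51.8 to 69.2) of regions on 8p and 60.7% (56.5 to 64.9) on 8q, against 43.0% and 46.3% of the arms' length. For SCC13-only regions the shares were 56.8% (39.5 to 72.9) on 8p and 62.7% (50.0 to 74.2) on 8q. The darkest bands held 2 of the 37 SCC13-only regions of 8p, 5.41% (0.661 to 18.2), and 8 of the 67 of 8q, 11.9% (5.30 to 22.2). The SCC13-only regions of 8p were thus not gathered in the darkest bands, which make up 13.8% of the arm.

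The longest run of SCC13-only regions on 8p lay across 8p12 and 8p11.23, where 6 followed each other over 3.88 Mb with no CAL27 region between them (chr8:32986856-36865116). It opened with a 592 bp region at 32986856 to 32987447 in 8p12. An empty stretch of 3.44 Mb followed, the longest between neighbouring regions of the arm. The run went on with regions of 1029 bp at 36431065 to 36432093 and 486 bp at 36433497 to 36433982, still in 8p12. It ended in 8p11.23 with regions of 1086 bp at 36720000 to 36721085, 1003 bp at 36781107 to 36782109 and 426 bp at 36864691 to 36865116. On 8q the longest SCC13-only run had 3 regions, in 8q21.2 (chr8:86271339-86484257), and off chromosome 8 the longest had 8. The region after an SCC13-only region was again SCC13-only in 18 of 36 cases on 8p, 50.0% (32.9 to 67.1), in 7 of 67 on 8q, 10.4% (4.30 to 20.3), and in 18.1% (16.0 to 20.2) off chromosome 8. The share was 25.8% (11.9 to 44.6) on 4p and 24.6% (15.1 to 36.5) on 4q, with intervals that overlap that of 8p. On 3p it was 14.5% (6.50 to 26.7). A larger share of the class raises this value and lengthens runs, so neither is independent of the counts above.

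Among the 12 SCC13-only regions of 8p21.3, 3 stood in a row between 19148863 and 19716243, with widths of 792, 1178 and 931 bp, and no CAL27 region lay between them. Another 3 followed each other at 20175216 to 20175601, 20285321 to 20285987 and 21461630 to 21462428. A further 3 lay between 22004875 and 22211031, the widest of 1180 bp. The band of TNFRSF10B thus held SCC13-only regions from 19148863 to 23021464, mixed with the 7 regions in both lines, which lay between 19998079 and 22872458.

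The longest run of CAL27-only regions had 4 regions on 8p and 8 on 8q, which has many more regions of this class. A CAL27-only region was followed by another in 45.1% (31.1 to 59.7) of cases on 8p and in 55.0% (49.2 to 60.8) on 8q, with overlapping intervals. On 8p there were 3 runs of 4, in 8p21.2 (chr8:23508092-24312175), 8p21.1 (chr8:27643777-28557691) and 8p12 (chr8:32117240-32371046). On 8q they reached 8 regions, once across 8q11.23 and 8q12.1 (chr8:55124478-56322000) and once across 8q24.21 and 8q24.22 (chr8:131116090-131801894). The longest run of regions in both lines on 8p had 4, within 83.2 kb of 8p23.1 (chr8:10511888-10595077). On 8q 3 runs had 5 such regions, in 8q11.21 (chr8:49608580-49626684), 8q22.3 (chr8:102099701-102456779) and 8q24.11 (chr8:119012135-119073276).

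Regions were widely spaced on 8p and crowded in places on 8q. The median distance between midpoints of neighbours was 111 kb on 8p (quartiles 48.0 and 320 kb), 79.6 kb on 8q (23.2 and 197 kb) and 79.2 kb off chromosome 8. Wide spacing was not particular to 8p, as the median was 150 kb on 3p, 109 kb on 4p and 194 kb on 4q. Where neighbours whose midpoints lay within 12500 bp were joined, 8p had 9 pairs and no group of 3 or more. On 8q 64 groups of 2 or more held 146 regions, 27.3% (23.6 to 31.3), against 18 regions, or 13.8%, on 8p. Of these groups 14 had 3 or more regions and 3 had 4 or more. The largest was the run of 5 regions in both lines in 8q11.21 named above, with widths from 701 to 1269 bp within 18.1 kb. Groups of 4 lay in 8q11.23, at 54422351 to 54442746 with 1 region in both lines and 3 in CAL27 only, and at 54851109 to 54870403 with 2 in both lines and 1 of each other class.

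Regions in both lines were seldom grouped on 8p, while for the line-only classes the arms could not be told apart. Regions in both lines were joined to a neighbour in 3 of 42 cases on 8p, 7.14% (1.5 to 19.5), and in 58 of 169 on 8q, 34.3% (27.2 to 42.0), with 27.6% (26.3 to 29.0) off chromosome 8. For CAL27-only regions the shares were 21.6% (11.3 to 35.3) on 8p and 24.7% (20.0 to 30.0) on 8q, and for SCC13-only regions 10.8% (3.03 to 25.4) and 20.9% (11.9 to 32.6), with intervals that overlap between arms. Off chromosome 8 these classes had 25.8% and 15.8%. Within each arm the intervals of the 3 classes overlap. Of the 9 pairs on 8p, 4 held more than 1 class. The 1 pair of SCC13-only regions was that of 36431065 to 36433982 in 8p12.

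SCC13-only regions of 8p lay, at the median, farther from a CAL27 region than those of 8q did. The distance from an SCC13-only midpoint to the nearest region of the CAL27 list had a median of 202 kb on 8p (quartiles 88.6 and 413 kb), 49.9 kb on 8q (13.6 and 127 kb) and 78.5 kb off chromosome 8. A CAL27 region lay within 50 kb of 7 of the 37 SCC13-only regions of 8p, 18.9% (7.96 to 35.2). On 8q it did so for 34 of 67, 50.7% (38.2 to 63.2), and off chromosome 8 for 38.8% (36.1 to 41.4). The most distant was the 1182 bp region at 3899091 to 3900272 in 8p23.2, 1860 kb from the nearest CAL27 region, and the closest was that at 22571302 to 22572488 in 8p21.3, at 4.67 kb. A low density of CAL27 regions lengthens these distances, and its part in the difference was not tested. In the other direction, CAL27-only regions lay a median of 101 kb from the nearest SCC13 region on 8p, 83.6 kb on 8q and 111 kb off chromosome 8.

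**Figure D3:**
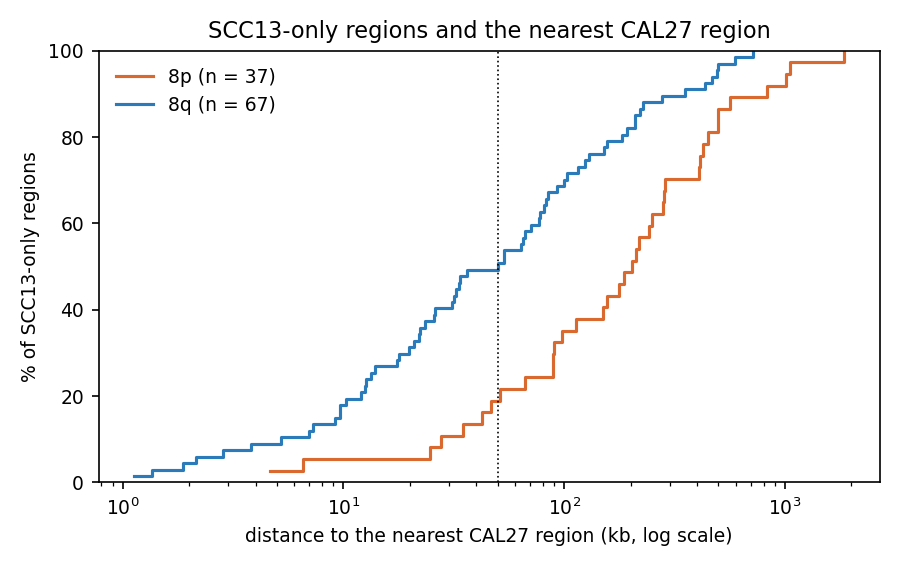
Cumulative share of SCC13-only regions (%) against the distance to the nearest CAL27 region (kb, log scale) for 8p and 8q; the dotted line marks 50 kb. At 50 kb the curve has reached 18.9% on 8p and 50.7% on 8q.

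Width was not used to choose the chromosome, and CAL27-only regions were on average narrower on 8p than on 8q. Across the 41 arms, however, a larger share of the SCC13 list relative to the CAL27 list went with narrower CAL27-only regions (Pearson's r = -0.75). Their width is thus not independent of the difference that led to the choice. The CAL27-only regions had a geometric mean width of 585 bp on 8p (SD 0.49 on the log2 scale, n = 51), 773 bp on 8q (SD 0.54, n = 299) and 743 bp off chromosome 8 (SD 0.53, n = 9031). The ratio of 8p to 8q was 0.756 (interval 0.683 to 0.837). Regions in both lines had means of 826 bp on 8p (SD 0.48, n = 42) and 948 bp on 8q (SD 0.48, n = 169), a ratio of 0.871 (0.778 to 0.975). SCC13-only regions showed no such difference, with 647 bp on 8p (SD 0.62, n = 37) and 601 bp on 8q (SD 0.60, n = 67), a ratio of 1.08 (0.908 to 1.28). These are 3 comparisons of width between the arms, whose intervals are not adjusted for their number, and the distributions overlap broadly in each class. A list without scores or summits does not say whether a narrow region was weakly bound. Shared regions have the same positions in both lists, so their width is not a separate measure in each line. How the positions came to match was not tested.

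The narrow CAL27-only regions were found in all 3 segments of 8p, with geometric means of 517, 584 and 640 bp from the telomere inwards, against 774, 727 and 805 bp in the segments of 8q. Over the 41 arms with 20 or more regions, 8p had the narrowest CAL27-only regions, and the median arm had 745 bp. The next arms, 10p with 599, 18q with 603 and Xq with 605 bp, were close to the 585 bp of 8p. No interval is given for these differences, so the first rank is not settled. Arms 3p, 4p and 4q had 607, 667 and 609 bp, and 8q stood at rank 31 from the narrowest. SCC13-only regions of 8p were at rank 33 from the narrowest. CAL27-only regions were narrower on average than SCC13-only regions on 3 of the 41 arms, 8p among them with a ratio of 0.903 (0.764 to 1.07); on 8q that ratio was 1.29 (1.16 to 1.43).

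**Figure D4:**
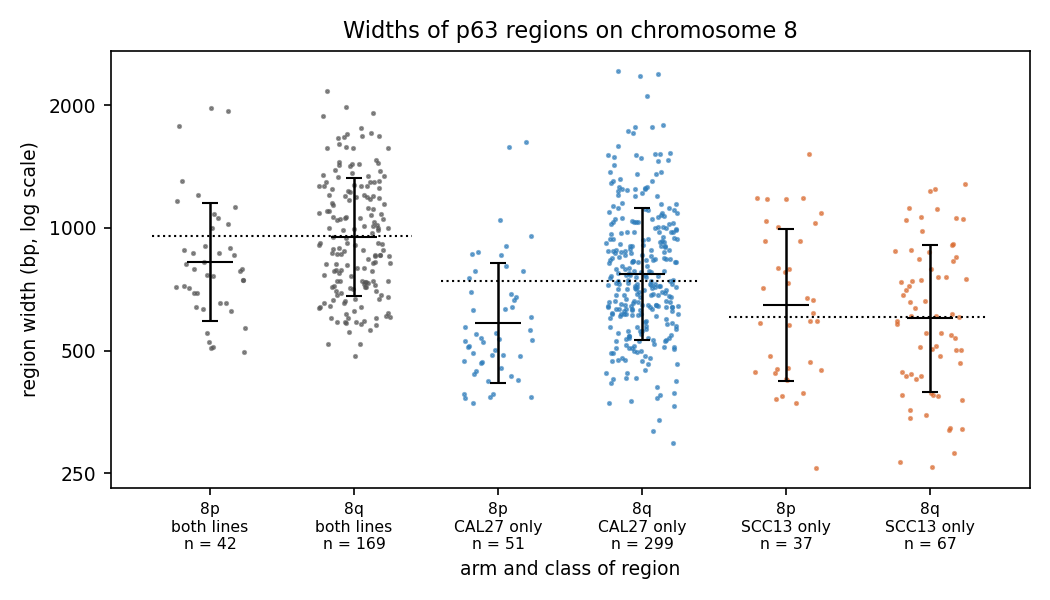
Width of each p63 region of chromosome 8 (bp, log scale) by arm and class; the bar and whiskers are the geometric mean and 1 SD of log2 width, and the dotted lines are the geometric means off chromosome 8. CAL27-only regions of 8p centre on 585 bp, below the 773 bp of 8q, and SCC13-only regions on 647 and 601 bp.

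Among wide regions the SCC13-only share of 8p was the highest of the 41 arms, and among regions of middle width it was not. The distinct regions of the genome were ranked by width and cut into 3 sets with like numbers of regions, with limits at 651 and 923 bp. Of the 26 regions of 8p over 923 bp, 11 were in both lines, 4 in CAL27 only and 11 in SCC13 only, so 42.3% (23.4 to 63.1) were SCC13-only. On 8q the wide group had 82, 87 and 10, or 5.59% (2.71 to 10.0) SCC13-only, and off chromosome 8 the share was 3.75% (3.24 to 4.33). Next to 8p came Xp with 6 of 25 regions, 24.0%, and 18q with 4 of 28, 14.3%. The share was 11.1% on 3p, 8.16% on 4p and 4.48% on 4q. The interval of 8p takes in the 24.0% of Xp, so the first rank is not settled beyond counting error. Nor is this rank independent of the difference between the lines that led to the choice of the chromosome. In the narrow group, up to 651 bp, SCC13-only regions made up 30.2% (19.2 to 43.0) on 8p, 22.3% (16.2 to 29.4) on 8q and 15.8% (14.8 to 16.9) off chromosome 8, so the arms lay closer together there. In the middle group, from 651 to 923 bp, the share was 17.1% (7.15 to 32.1) on 8p, below the 20.9% of 3p and the 21.1% of 4p, and its interval overlaps that of the 10.5% (6.55 to 15.8) on 8q.

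Wide CAL27 regions of 8p were mostly listed in SCC13 as well, which was also the case on 3p, 4p and 4q. Of the 15 CAL27 regions of 8p over 923 bp, 73.3% (44.9 to 92.2) were in both lists, against 48.5% (40.8 to 56.3) on 8q and 46.9% (45.4 to 48.3) off chromosome 8; the interval for 8p overlaps that of 8q. The wide group had like shares on 4q (73.4%), 3p (68.8%) and 4p (64.4%). In the group between 651 and 923 bp the shares were 64.7% (46.5 to 80.3), 37.1% (29.8 to 44.8) and 33.5% (32.1 to 34.9). In the narrow group they were 20.5% (9.80 to 35.3), 18.6% (12.3 to 26.4) and 13.2% (12.1 to 14.2).

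The widest regions of 8p were 3 listed in both lines, of 1964 bp in 8p21.2 (chr8:26122133-26124096), 1934 bp in 8p22 (chr8:18953149-18955082) and 1777 bp in 8p11.22 (chr8:38793910-38795686). They were followed by 2 of CAL27 only, 1623 bp in 8p11.21 (chr8:42146954-42148576) and 1584 bp in 8p12 (chr8:32167183-32168766), the latter inside the CAL27-only run of that band. The widest SCC13-only region of the chromosome, 1516 bp in 8p11.21 (chr8:41013470-41014985), lay 561 kb from the nearest CAL27 region. On 8q 4 of the 5 widest were CAL27-only: 2433 bp in 8q24.13 (chr8:123873588-123876020), 2389 bp in 8q24.3 (chr8:143874800-143877188), 2364 bp in 8q11.23 (chr8:53654425-53656788) and 2111 bp in 8q23.3 (chr8:116505560-116507670). The other, of 2165 bp in 8q22.3 (chr8:102449005-102451169), was in both lists.

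At the ends of the arms, the region nearest to the telomere of 8p was listed in both lines (chr8:164410-164916, 507 bp, 8p23.3), and that nearest to the centromere was SCC13-only (chr8:42979348-42980386, 1039 bp, 8p11.21), with its nearest CAL27 region 832 kb away. On 8q the first region after the centromere was in both lines (chr8:47725887-47726524, 638 bp, 8q11.1), and the last before the telomere was CAL27-only (chr8:146288407-146288877, 471 bp, 8q24.3).

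Set beside the other arms, 8p had the highest ratio of list shares, that is, the percentage of the SCC13 list on an arm divided by the percentage of the CAL27 list. This ratio led to the choice of the chromosome, so its rank and interval are a description and no test. The short arm held 1.34% of SCC13 and 0.672% of CAL27 regions, a ratio of 2.00 (interval 1.48 to 2.69), and the median of the 41 arms was 1.02. Arm 8q, with 4.01% and 3.38% and a ratio of 1.18 (1.02 to 1.38), was at rank 7, next to 10p with the same rounded ratio. The interval of 8p overlaps those of its neighbours in this order, 3p with 1.48 (1.21 to 1.82) and 4p with 1.45 (1.12 to 1.89), so their order is not settled beyond counting error. Arm 8p was at rank 40 of 41 in the density of CAL27 regions, rank 30 in that of SCC13 regions and rank 2 in that of SCC13-only regions, and 8q was at ranks 27, 12 and 6. The share of SCC13-only regions within 50 kb of a CAL27 region was 40.0% (27.0 to 54.1) on 3p, 38.7% (21.8 to 57.8) on 4p and 23.2% (13.9 to 34.9) on 4q, each with an interval that overlaps that of the 18.9% on 8p.

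**Figure D5:**
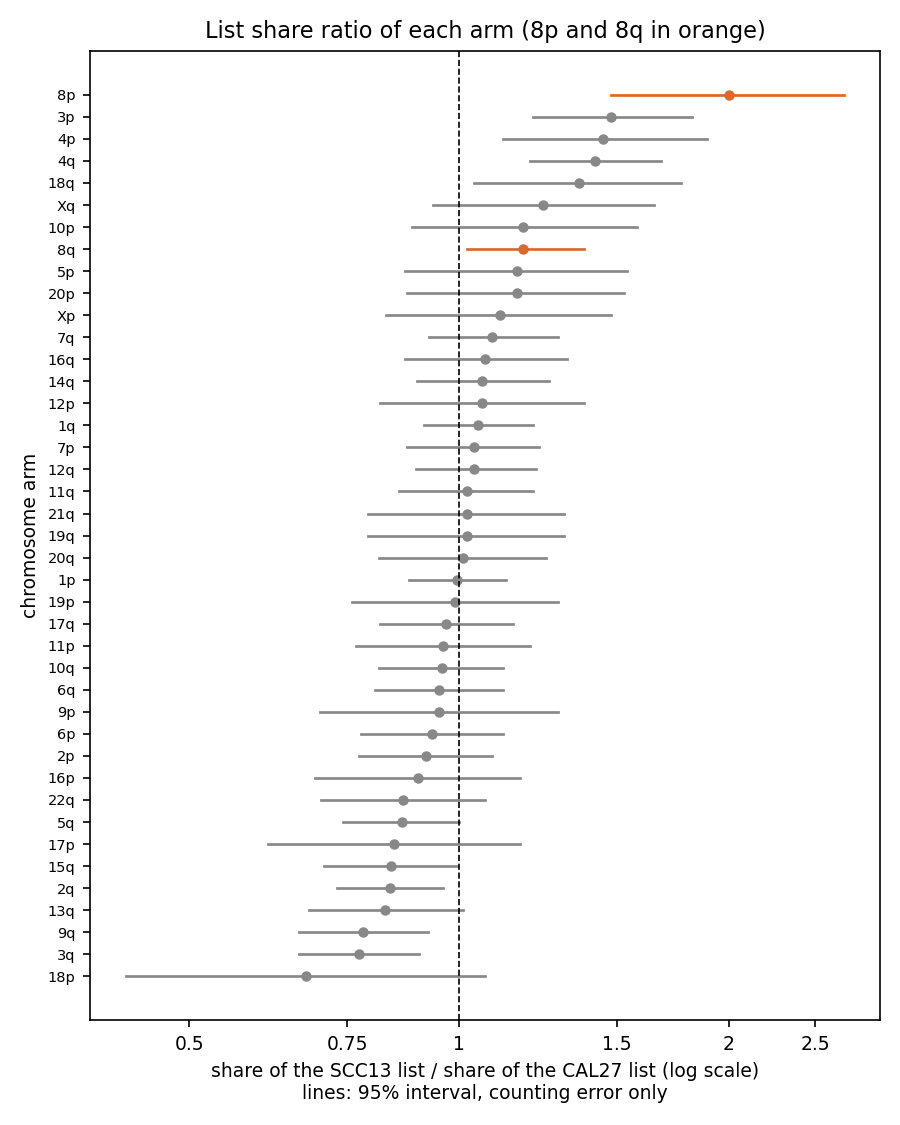
Ratio of the share of the SCC13 list to the share of the CAL27 list (log scale) for the 41 chromosome arms with 20 or more distinct regions, with 95% intervals that cover counting error only; 8p and 8q are in orange. The ratio is 2.00 for 8p and 1.18 for 8q, and the dashed line marks equal shares. This ratio led to the choice of the chromosome.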

How the data were processed

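Chromatin of 2 replicates per line was immunoprecipitated with 10 ug of p63 antibody after 10 min in 1% formaldehyde, per the labels' protocols. Bowtie2, SAMtools 1.8, MACS2 and the build hg19 are listed in the submitters' processing notes. Not given in the sources used here are the threshold for calling regions, how replicates were combined and whether the none samples served as control. For each line the authors deposited 1 list per line with 3 columns (chromosome, start, end) and no score. Each region is therefore a yes or no value.

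Regions overlapping by 1 bp or more were counted as shared. Bands and the arm boundary of hg19 came from circlize 0.4.16 (R 4.3.3). Regions were placed by their midpoints. Bins of 5 Mb were counted from the chromosome start and divided at the boundary. The members and lists were chosen with earlier results of these data known; the segments, width groups, distances to the nearest region and ranks over arms were added after the values were seen. Percentages carry exact Clopper-Pearson intervals, ratios normal approximations on the log scale. Named regions are, per arm, the 5 widest, groups of 4 or more, the bins with the most and fewest of each class, the outermost regions and, added later, the longest runs, the 8p21.3 regions and the extremes of distance. Positions are counted from 1. The reference gene table is of GRCh38 and was not used, and no sequence is printed. Functions were tested on simulated lists. Calculations used Python 3.11.15, numpy 2.4.6, pandas 2.3.3, scipy 1.17.1 and matplotlib 3.10.9.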

Additional observations from a re-analysis of the deposited data

How the results depend on the processing

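No paired analysis was possible because each line has 1 list for both replicates, so leaving out replicates was not run; a stricter threshold was not run either, as the lists hold no scores. Class shares of both arms were the same under the 2 other overlap rules, since shared regions are identical, and stayed within their intervals with neighbours counted once or without the bin with the most SCC13-only regions. Among regions wider than the median of all distinct regions, the short arm had 46.8% in both lines and 23.4% in CAL27 only, and the long arm 42.1%, 50.9% and, for SCC13 only, 6.96%; SCC13-only regions stayed at 29.8% on the short arm. Without shared regions the ratio of list shares was 4.73 for 8p and 1.46 for 8q. Each shared region counts once in both lists, so leaving these regions out changes the ratio by its definition. Under the other settings, bins left out in turn (an addition after the data were seen) among them, it was 1.92 to 2.20 for 8p and 1.07 to 1.21 for 8q, whose interval reached below 1 with neighbours counted once, among wider regions and without its bin with the most SCC13-only regions (lower limits 0.980, 0.868 and 0.999). Bins with at least as many SCC13-only as CAL27-only regions were 11.1% of filled bins on 8p, 77.8% (7 of 9) among wider regions and 40.0% (4 of 10) in bins shifted by 2.5 Mb; on 8q they were 4.76% and, in bins of 10 Mb, 0%. Ties count here, and on 8p among wider regions they include bins with no line-only region. Groups of 3 or more on 8q numbered 14, but 3 at a joining distance of 5 kb and 29 at 25 kb, as the rule dictates; 8p had 0 at each. The ratios of width between arms kept their direction with medians and with each bin left out in turn, at 0.719 to 0.776 for CAL27-only, 0.823 to 0.929 for both lines and 1.02 to 1.13 for SCC13-only regions.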

Other observations

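Across the 41 arms, the ratio of list shares went with the width of CAL27-only regions. Arms with a larger SCC13 share had narrower CAL27-only regions, with Pearson's r = -0.75 between the log2 values and Spearman's rho = -0.58, and -0.70 and -0.55 over the 40 arms without 8p. For regions in both lines the values were -0.54 and -0.37, and for SCC13-only regions -0.01 and -0.01. The points come from the same 2 lists, and CAL27-only regions enter both quantities, so these values are a description with no p-value. The relation was looked for after the narrow CAL27-only regions of 8p had been seen.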
